A study of Mus musculus with 24 samples.

Results

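The question followed here is whether hairpin vectors against the histone demethylases Kdm5b and Kdm5c act in alcohol-fed male (XY) liver in the same way with and without a vector against the aryl hydrocarbon receptor, AhR. For each gene the change brought by the Kdm5 vectors was computed on log2(FPKM + 0.5) in mice that also carried the AhR vector, and the change brought by the Kdm5 vectors without it was subtracted. FPKM are fragments of a gene scaled by its length and by the fragments mapped in the library. The resulting difference of differences, called the interaction below, is 0 where the effects of both vectors add up on the log scale, below 0 where the combination gives less RNA than the sum of the single effects, and above 0 where it gives more. Genes were taken where at least 1 FPKM was reached in at least 3 libraries, which held for 2299 of the 2372 genes in the table and left out 73. The interaction is computed from the means of 12 of the 24 libraries, those of the males. The filter and the estimate of spread used all 24 libraries. Of the 2299 genes, 96 did not reach 1 FPKM in 3 male libraries.

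KDM5 enzymes remove methyl groups from lysine 4 of histone H3, a mark of active promoters, and Kdm5c lies on the X chromosome in a family with a Y-linked relative. AhR is a ligand-activated transcription factor that dimerises with ARNT, binds a short GCGTG core and is best known in hepatocytes for inducing drug-metabolising enzymes of the Cyp1 family.

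RNA of whole liver was measured in mice kept for 3 weeks on the Lieber-DeCarli alcohol diet, a liquid diet in which ethanol replaces part of the calories. Every mouse had been given 2 injections of adeno-associated virus (AAV) carrying short hairpin RNA, so that no group is free of vector or of alcohol. Control males received AAV-shControl in both injections. Kdm5 males received AAV-shKdm5b with AAV-shKdm5c first and AAV-shControl second, AhR males received AAV-shControl first and AAV-shAhR second, and males of the combined group received the Kdm5 pair first and AAV-shAhR second. Each group held 3 mice, called mouse 1 to 3 in the order of the samples, and the females had the same 4 groups. The labels give no strain, age, batch, collection time or viral dose, and name neither the promoter of the hairpins nor the cells that took up the vectors. Nothing in the labels says how the mice were housed or processed, so the p-values measure the spread between these samples only.

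Read depth is unknown because the values are FPKM. The FPKM of the table summed to between 380206 and 429780 in the male libraries, of which the 19 Mup genes, which encode urinary pheromone carriers, took 14.0% to 25.7%. Spearman correlations between male libraries over genes lay between 0.984 and 0.995, and 0 pairs of libraries were identical. The 6 hepatocyte markers of the table summed to between 17499 and 20896 FPKM in the males. Of the genes aimed at, Kdm5c could be followed (chromosome X, 152233198 to 152279102 of GRCm38.p6). It measured 6.39, 6.8 and 7.21 FPKM in the control males, 4.89, 4.64 and 5.89 in the Kdm5 males, 6.92, 7.69 and 7.81 in the AhR males and 5.11, 5.36 and 4.86 in the males given both. All 6 libraries with the Kdm5 vectors lay below all 6 without them. The difference was -0.38 ± 0.11 (adjusted p = 0.139) without the AhR vector and -0.51 ± 0.11 (adjusted p = 0.0124) with it, and its interaction was -0.13 ± 0.16 with a 95% confidence interval of -0.45 to 0.19. Kdm5b and Ahr were not analysed here.

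In the males, 37 of 2299 genes passed the test of the interaction (1.61%, limma with Benjamini-Hochberg adjustment, threshold 0.05). Of these, 32 lay below the sum of the single effects (1.39% of the genes tested) and 5 above it (0.217%). The transcriptional repressor Bcl6 was lowest, at -4.05 log2, and the genes below the sum also included ones of hormone and clock response (Per1, Pim3, Arrdc2), of protein quality control in the endoplasmic reticulum (Herpud1) and of insulin-regulated transcription (Foxo1). Per1, Pim3 and Arrdc2 had been named in earlier results of these libraries, so they are no independent evidence of a hormone or clock theme. The inhibitor of DNA binding Id2 and the pericentral factor Tbx3 were among the 5 above the sum. The differences of the 37 genes were between 0.62 and 4.05 log2 in size. Over all 2299 genes the median interaction was -0.08, 65.9% of the genes lay below 0, and 294 had an unadjusted p under 0.05. Nearest to the threshold on the inside were the myosin phosphatase partner Mprip at -0.81 (adjusted p = 0.0433) and the zinc finger homeobox gene Zhx3 at -0.86 (0.0468). On the outside followed Gm41035 at 2.33, Sowahc at 0.87 and the amino acid transporter gene Slc38a2 at -1.11, each with an adjusted p of 0.0598.

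The number of genes passed rested on single mice. It was 5 without mouse 2 and 10 without mouse 3 of the combined group, 7 without mouse 3 of the AhR group, and 8, 24 and 19 without mouse 1, 2 or 3 of the Kdm5 group. It was 22 without mouse 2 or mouse 3 of the control group, and between 29 and 44 in the remaining 4 fits. Bcl6, Spata2l, Id2 and Prob1 passed in each of the 12 fits that left out 1 library (Prob1 not with the length trend removed, adjusted p = 0.06), and all 37 genes kept their sign in each of them. The 37 were chosen by this test and the fits share most of their libraries, so that choice largely fixed the kept signs. The core clock genes also moved with the groups. The first component of the core clock genes, centred within each sex and signed opposite to the activator gene Arntl, lay between -0.44 and -0.25 in the control males and between -0.10 and 0.24 in the other 9 males. With this component, of which Per1 is a part, as a covariate 4 genes passed: Bcl6 and Spata2l below the sum, Camk2b and Gm41844 above it. If the vectors themselves moved the component, the covariate also takes out part of their effect. What moved it was not tested.

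**Figure D1:**
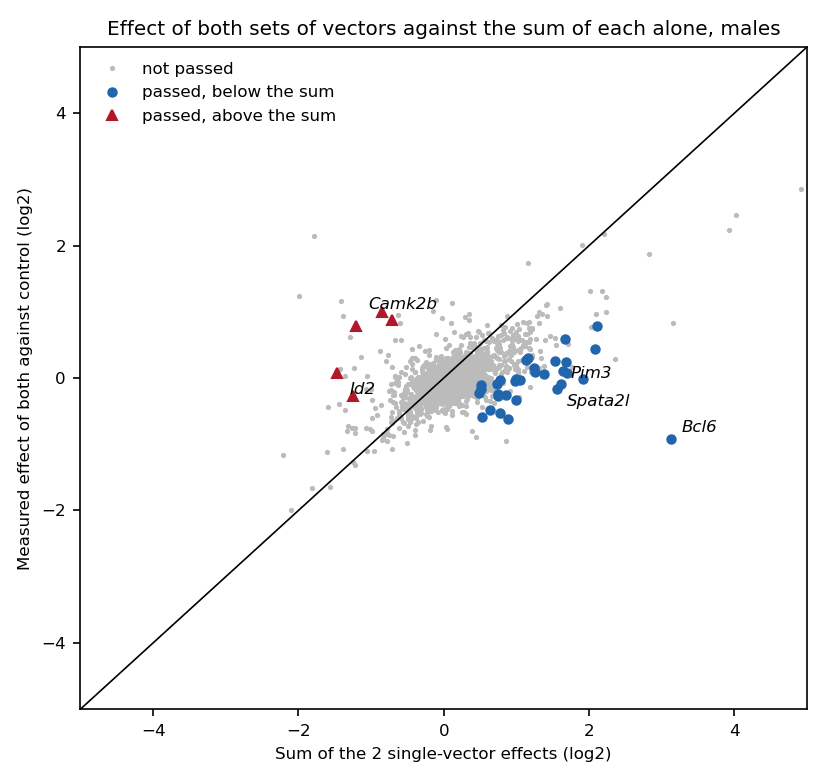
Effect of both sets of vectors against control (vertical axis, log2) against the sum of the Kdm5 and AhR effects measured alone (horizontal axis, log2) for the 2299 tested genes of male liver, with the line of equality. The 32 blue circles lie below the line and the 5 red triangles above it; Bcl6 had an expected change of 3.13 and a measured one of -0.92.

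The plot of measured against summed effects shows 1 shape for nearly all genes below the sum: more RNA with either vector alone than in controls, and less with both than with either. Of the 32 genes, 31 had a higher mean in both single-vector groups than in controls and a lower mean with both than with either alone, a pattern held by 465 of all 2299 genes (20.2%). The exception was the corepressor gene Irf2bp2. In 22 of the 32, every library with both vectors lay below every library with 1 of them (197 of all genes, 8.57%), and in 21 every control library lay below every single-vector library (72 of all genes, 3.13%). The choice of genes by their interaction fixes part of this shape. Of the 5 genes above the sum, 3 had single-vector means below the controls and a combined mean above both (149 of all genes, 6.48%), and 4 had every library with both vectors above every single-vector library (38 of all genes, 1.65%).

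The single comparisons, which share their libraries with the interaction and only describe it, place the 37 genes as follows. The AhR vector alone raised 12 of them and lowered 0, while it raised 19 (0.826%) of the 25 genes (1.09%) that it changed in the whole table. The Kdm5 vectors alone raised 6 of the 37 and lowered 0, among 28 genes changed (1.22%), of which 24 rose (1.04%). With the AhR vector present, the Kdm5 vectors lowered 19 of the 37 and raised 4, among 75 genes changed (3.26%), of which 54 fell (2.35%). With the Kdm5 vectors present, the AhR vector lowered 8 of the 37 and raised 0, among 21 genes changed (0.913%), of which 17 fell (0.739%). With median-of-ratios scaling the AhR vector alone raised 11 genes and lowered 9, and the Kdm5 vectors with it raised 26 and lowered 33.

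Promoter sequence was compared for the 37 genes, because AhR and the clock proteins bind short motifs near start sites. RefSeq windows of GRCm38.p6, from 250 bases before to 50 bases after a start site of the gene, were available for 28 of the 32 lower genes, 4 of the 5 higher ones and 1827 of the 2299 tested. Such a start site can lie inside the span given for a gene, as it does for Per1 and Klf15. The AhR core GCGTG, searched on both strands, occurred in a window of 20 of the 28 lower genes (71.4%), 1 of the 4 higher genes and 938 of the 1827 genes (51.3%). The E-box CACGTG of clock factors occurred in 6 of the 28 (21.4%), in 0 of the 4 and in 198 of the 1827 (10.8%). The glucocorticoid receptor motif ACANNNTGT occurred in 1 of the 28 (3.57%), in 0 of the 4 and in 109 of the 1827 (5.97%). Each motif was counted by itself, whether or not matches touched each other. Genes with several start sites were counted once if any window matched, and a match of these letters says nothing about binding. The 4 windows shown carry the match of the gene furthest below the sum (Bcl6), the E-box of the clock gene Per1, the window with most E-boxes among the lower genes (Klf15) and the one with 4 AhR cores whose gene also differed between the sexes (Rasgef1b). They were chosen after the matches were known. The other Per1 window (chr11:69099902-69100201) holds 1 AhR core and no E-box, and the other Bcl6 window holds none of the 3 motifs. Capitals mark the motif matches, and each is written 5′ to 3′ on the gene's strand.
Bcl6, chr16:23988803-23989102, minus strand, 1 E-box: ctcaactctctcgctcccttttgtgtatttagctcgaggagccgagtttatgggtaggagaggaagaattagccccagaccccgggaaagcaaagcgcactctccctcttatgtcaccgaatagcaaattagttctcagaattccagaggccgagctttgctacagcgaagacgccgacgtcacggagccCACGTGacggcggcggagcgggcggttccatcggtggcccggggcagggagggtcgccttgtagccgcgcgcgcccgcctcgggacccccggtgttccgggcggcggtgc
Per1, chr11:69098699-69098998, plus strand, 1 E-box: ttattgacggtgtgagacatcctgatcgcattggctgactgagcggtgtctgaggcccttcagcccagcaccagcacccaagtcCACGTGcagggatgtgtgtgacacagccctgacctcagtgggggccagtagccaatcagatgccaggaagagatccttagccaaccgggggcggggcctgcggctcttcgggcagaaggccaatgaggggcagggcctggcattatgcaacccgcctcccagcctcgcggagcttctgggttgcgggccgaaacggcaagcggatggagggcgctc
Klf15, chr6:90462326-90462625, plus strand, 3 E-boxes and 2 AhR cores: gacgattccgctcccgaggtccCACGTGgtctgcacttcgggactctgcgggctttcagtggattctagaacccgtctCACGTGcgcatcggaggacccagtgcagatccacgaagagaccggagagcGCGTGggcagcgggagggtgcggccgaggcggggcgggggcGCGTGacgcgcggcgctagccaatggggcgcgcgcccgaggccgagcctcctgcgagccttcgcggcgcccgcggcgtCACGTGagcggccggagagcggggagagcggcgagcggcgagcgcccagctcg
Rasgef1b, chr5:99252878-99253177, minus strand, 4 AhR cores: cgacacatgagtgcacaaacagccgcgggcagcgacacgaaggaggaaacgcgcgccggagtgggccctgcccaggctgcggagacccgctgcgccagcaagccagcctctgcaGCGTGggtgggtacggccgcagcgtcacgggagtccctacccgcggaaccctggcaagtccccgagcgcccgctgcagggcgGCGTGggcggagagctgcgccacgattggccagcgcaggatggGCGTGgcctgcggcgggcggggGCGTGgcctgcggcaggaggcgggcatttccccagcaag

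Bcl6 (chromosome 16, 23965050 to 23988866) encodes a zinc finger repressor that is known as male-biased in mouse liver. In the control groups of this study the 3 female values lay above the 3 male ones, the reverse of that bias, with no test of the sexes made. It measured 4.73, 3.89 and 4.56 FPKM in the control males and 9.57, 7.38 and 6.57 in the Kdm5 males. In the AhR males it reached 31.4, 29.99 and 16.26 FPKM, and in the males given both it was 2.28, 1.99 and 2. The 4 groups did not overlap: the AhR males were highest, the Kdm5 males next, then the controls, and the combined group was lowest. The AhR vector alone raised Bcl6 by 2.38 ± 0.29 (adjusted p = 0.000111), whereas the AhR vector given with the Kdm5 vectors changed it by -1.67 ± 0.29 (adjusted p = 0.00851). The Kdm5 vectors changed it by 0.76 ± 0.29 (adjusted p = 0.327) alone and by -3.29 ± 0.29 (adjusted p = 7.88e-07) with the AhR vector. The interaction was -4.05 ± 0.41 (95% confidence interval -4.90 to -3.20, adjusted p = 4.43e-06), and it lay between -4.35 and -3.89 when 1 library was left out. These simple effects share libraries with the interaction and are not independent of it.

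Spata2l (chromosome 8, 123232255 to 123236263), a relative of the adaptor Spata2 that links the deubiquitinase CYLD to the linear ubiquitin ligase, had the same adjusted p as Bcl6 at a smaller difference. It measured 16.58, 16.6 and 19.68 FPKM in controls, 26.47, 28.56 and 23.39 with the Kdm5 vectors, 32.54, 40.71 and 34.18 with the AhR vector and 18.26, 15.53 and 13.19 with both. Every single-vector library lay above every control library and above every library with both. Both vectors raised it alone, the Kdm5 vectors by 0.56 ± 0.12 (adjusted p = 0.0304) and the AhR vector by 1.00 ± 0.12 (adjusted p = 0.000111). Given on top of the other, the Kdm5 vectors changed it by -1.17 ± 0.12 (adjusted p = 8.76e-06) and the AhR vector by -0.73 ± 0.12 (adjusted p = 0.00851). Its interaction was -1.73 ± 0.17 (adjusted p = 4.43e-06).

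**Figure D2:**
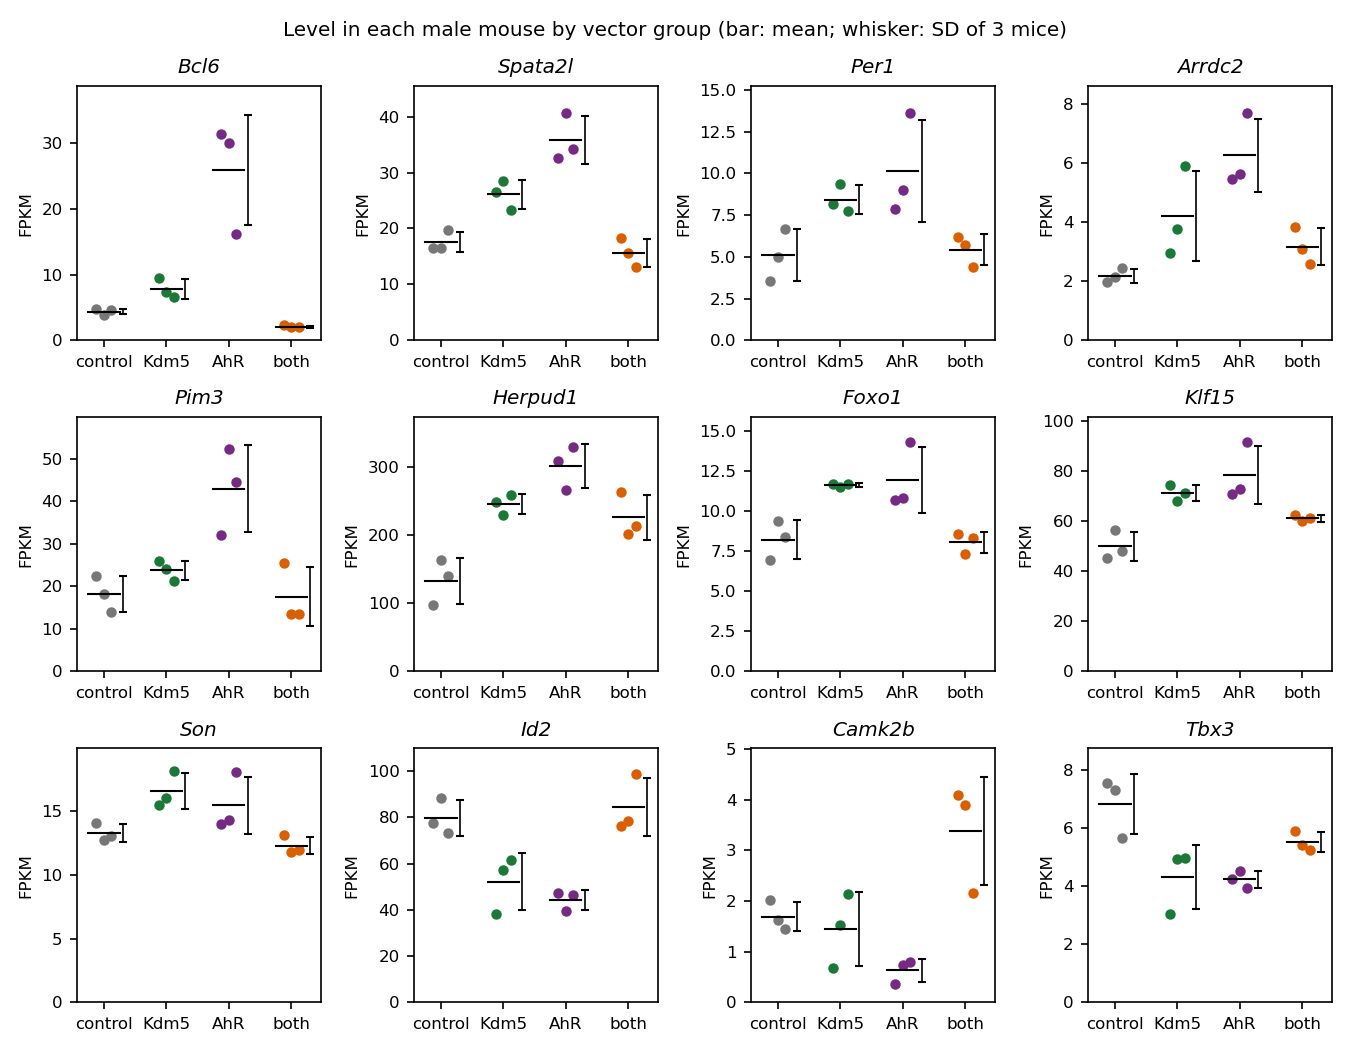
Level (FPKM, vertical axis from 0) in each of the 12 male mice for 12 genes that passed the interaction, by vector group; points are mice, bars are means and whiskers the SD of 3 mice. In the panels of Bcl6, Spata2l, Per1, Foxo1, Klf15 and Son the single-vector groups stand above the combined group, and in those of Id2 and Tbx3 they stand below it.

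Genes that respond to glucocorticoid hormone were among the lower genes. Of 15 tested members of that list, 12 lay below 0 (80% against 65.9% of all genes), with a median of -1.02 against -0.08 over all genes. Of the 15, 4 passed (26.7% against 1.61% of all genes), all lower: Bcl6, Per1, Arrdc2 and Pim3. The list holds members picked from earlier results of these libraries, so it is no independent evidence of a direction. Without the 8 earlier-named members it had 7 tested genes, of which 4 lay below 0 (57.1%), with a median of -0.56, and 0 passed by limma (4 at an unadjusted p under 0.05). Per1 (chromosome 11, 69095108 to 69109965), a repressor of the circadian clock with a glucocorticoid response of its own, measured 3.57, 5.02 and 6.7 FPKM in controls, 8.17, 9.38 and 7.72 with the Kdm5 vectors, 7.84, 8.99 and 13.6 with the AhR vector and 6.2, 5.71 and 4.41 with both. Both single-vector groups lay wholly above the controls and above the combined group, while controls and the combined group overlapped. Its interaction was -1.52 ± 0.30 (adjusted p = 0.0158), and it did not pass without mouse 3 of the AhR group or mouse 2 or 3 of the combined group (highest adjusted p 0.0548).

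Pim3 (chromosome 15, 88862194 to 88865726), a serine/threonine kinase that promotes growth and survival, measured 22.53, 18.12 and 13.99 FPKM in controls and 25.85, 24.08 and 21.29 with the Kdm5 vectors. It stood at 32.01, 52.38 and 44.53 FPKM with the AhR vector and at 25.52, 13.39 and 13.61 with both. The AhR group was highest throughout, and mouse 1 of the combined group lay above mouse 2 and 3 and within the range of the Kdm5 group. The AhR vector alone raised it by 1.21 ± 0.24 (adjusted p = 0.0128), and the interaction was -1.70 ± 0.34 (adjusted p = 0.0158). Arrdc2 (chromosome 8, 70835129 to 70839720), an arrestin-domain protein of membrane traffic, measured 1.99, 2.14 and 2.45 FPKM in controls, 2.98, 3.77 and 5.92 with the Kdm5 vectors, 5.48, 5.63 and 7.7 with the AhR vector and 3.84, 3.1 and 2.58 with both. Its control libraries were lowest and the combined group lay between them and the AhR group, overlapping the Kdm5 group. The interaction was -1.65 ± 0.33 (adjusted p = 0.0158).

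Other members of the hormone and clock lists had differences of similar size that did not pass. Tsc22d3, which encodes the glucocorticoid-induced leucine zipper, stood at 41.7 ± 8.94, 47.7 ± 3.3, 73.8 ± 9.37 and 34.6 ± 10.7 FPKM (SD, n = 3) in the control, Kdm5, AhR and combined groups, with an interaction of -1.33 ± 0.42 (adjusted p = 0.13). Lpin1, a phosphatidate phosphatase of lipid synthesis, measured 13.83, 16.22 and 49.01 FPKM in the AhR males and 67.9, 50.86 and 59 in the Kdm5 males, and its interaction was -1.69 ± 0.71 (adjusted p = 0.284). Mouse 3 of the AhR group stood apart from mouse 1 and 2 in Lpin1, as it did in the cytokine receptor gene Il1r1 (8.52, 10.98 and 27.38 FPKM, interaction -1.02 ± 0.44, adjusted p = 0.307). Of the 9 tested core clock genes 7 lay below 0 (77.8% against 65.9% of all genes), with a median of -0.31. Per1 was the member that passed (11.1% of the list against 1.61% of all genes). Ciart, a light-regulated clock repressor, showed a wide spread in the AhR group at 2.59, 6.15 and 8.71 FPKM and an interaction of -1.55 ± 0.77 (adjusted p = 0.432). Per3, the third period gene, had -0.60 ± 0.45 (adjusted p = 0.773). Of the 7 clock output genes 0 passed by limma (1 at an unadjusted p under 0.05), with a median of -0.08, and Usp2, a clock-controlled deubiquitinase, had -0.70 ± 0.46 (adjusted p = 0.647).

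In the lists of endoplasmic reticulum stress and of fasting 1 gene each passed, Herpud1 of 13 tested (7.69%) and Foxo1 of 17 (5.88%), against 1.61% of all genes. Herpud1 (chromosome 8, 94386429 to 94395371), a membrane component of endoplasmic-reticulum-associated degradation, measured 96.72, 163.17 and 140.15 FPKM in controls, 247.81, 229.76 and 258.08 with the Kdm5 vectors, 309.38, 266.14 and 329.08 with the AhR vector and 263.6, 202.18 and 212.94 with both. All 9 libraries with any targeting vector lay above all 3 controls, so that the combination did not bring this gene back to the control level. The Kdm5 vectors alone raised it by 0.91 ± 0.21 (adjusted p = 0.0367), the AhR vector alone by 1.20 ± 0.21 (adjusted p = 0.00628), and both together gave 0.78 where the sum was 2.11, an interaction of -1.33 ± 0.30 (adjusted p = 0.0304). The rest of its list did not pass, and 8 of the 13 lay below 0 (61.5%), with a median of -0.12. Ddit4, an inhibitor of mTORC1, measured 9.5, 11.36 and 4.48 FPKM with the AhR vector and 2.05, 1.94 and 1.61 with both, with an interaction of -1.80 ± 0.53 (adjusted p = 0.0995), and Slc38a2 had -1.11 ± 0.29 (adjusted p = 0.0598).

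Foxo1 (chromosome 3, 52268337 to 52350109), the insulin-inhibited activator of gluconeogenic genes, was narrow in the Kdm5 group at 11.67, 11.49 and 11.68 FPKM. It measured 6.92, 9.37 and 8.36 FPKM in controls, 10.69, 10.81 and 14.32 with the AhR vector and 8.58, 7.33 and 8.29 with both. The single-vector libraries all lay above the controls and above the combined group. The interaction was -1.01 ± 0.25 (adjusted p = 0.0407). Klf15 (chromosome 6, 90461043 to 90491803), a hormone-induced regulator of amino acid catabolism that was picked out after its values were seen, measured 45.37, 56.34 and 47.98 FPKM in controls, 74.56, 67.86 and 71.04 with the Kdm5 vectors, 70.72, 72.88 and 91.61 with the AhR vector and 62.55, 59.83 and 61.03 with both. The combined libraries fell between controls and single-vector libraries without overlap, and the interaction was -0.86 ± 0.20 (adjusted p = 0.0304). With the trend of each library on transcript length removed, neither gene passed (adjusted p = 0.254 for Foxo1 and 0.0934 for Klf15). Of the 17 tested genes of gluconeogenesis and fasting 11 lay below 0, a share of 64.7% that is near the 65.9% of all genes, with a median of -0.21. Igfbp1, a secreted binder of insulin-like growth factors, had -1.19 ± 0.48 (adjusted p = 0.261) and the tyrosine aminotransferase gene Tat -1.19 ± 0.48 (adjusted p = 0.269).

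Among genes of membrane proteins and signalling, Kcnk5 (chromosome 14, 20140057 to 20181782), a background potassium channel, measured 10.53, 10.14 and 9.33 FPKM in controls, 20.66, 14.42 and 15.5 with the Kdm5 vectors, 14.17, 13.9 and 21.24 with the AhR vector and 10.29, 11.3 and 9.8 with both. The single-vector libraries all stood above the other 6, and the interaction was -1.31 ± 0.30 (adjusted p = 0.0304). Rasgef1b (chromosome 5, 99217420 to 99252927), an exchange factor for Ras-family GTPases, measured 2.26, 3.82 and 4.39 FPKM in controls, 4.18, 3.71 and 3.74 with the Kdm5 vectors, 5.87, 6.54 and 6.73 with the AhR vector and 2.55, 2.51 and 2.73 with both. Here the AhR group alone stood above the controls, the combined group was below both single-vector groups, and the interaction was -1.32 ± 0.27 (adjusted p = 0.0158). Ip6k2 (chromosome 9, 108783764 to 108806333), an inositol hexakisphosphate kinase, measured 12.12, 13.38 and 12.22 FPKM in controls, 16.75, 17.04 and 15.71 with the Kdm5 vectors, 24.74, 23.99 and 21.88 with the AhR vector and 14.15, 13.35 and 12.77 with both. Its 4 groups were narrow, the AhR group was highest, and only the controls and the combined group overlapped. The interaction was -1.17 ± 0.23 (adjusted p = 0.0158), and it passed in 11 of the 12 fits without 1 library (adjusted p = 0.0503 without mouse 2 of the combined group).

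The remaining genes of the lowest 15 were Cep85l, which encodes a centrosomal protein (-1.93 ± 0.43, adjusted p = 0.0304), Tcim, a regulator of transcription and immune response (-1.61 ± 0.37, adjusted p = 0.0304), Lgals4, the sugar-binding galectin 4 (-1.51 ± 0.31, adjusted p = 0.0196), and the transmembrane channel-like gene Tmc7 (-1.43 ± 0.35, adjusted p = 0.0407). The solute carrier gene Slc45a3 had -1.31 ± 0.30 (adjusted p = 0.0304), and Rad54l2, an SNF2-type helicase, -1.26 ± 0.29 (adjusted p = 0.0304). Lgals4 fell from 10.05, 11.3 and 14.52 FPKM with the AhR vector to 6.79, 5.22 and 3.53 with both (-1.16 log2, adjusted p = 0.00567), and it measured 7.93, 6.64 and 9.75 in controls and 8.36, 11.97 and 10.98 with the Kdm5 vectors alone. Its combined libraries were all below its single-vector libraries, and mouse 1 overlapped the controls. Tmc7 was low throughout, with group means of 0.717, 1.67, 1.64 and 0.917 FPKM, where the added 0.5 shrinks a change. Tcim and Tmc7 passed in 3 and 4 of the 12 fits without 1 library.

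Some of the genes with smaller differences are named here after their values were seen, and stand for no group. Son, a protein of nuclear speckles needed for splicing, measured 14.04, 12.68 and 13.05 FPKM in controls, 15.44, 16.01 and 18.12 with the Kdm5 vectors, 14.01, 14.32 and 18.03 with the AhR vector and 13.09, 11.81 and 11.96 with both. Its combined libraries were all below its single-vector libraries, with an interaction of -0.62 ± 0.15 (adjusted p = 0.0346). With each library's trend on transcript length removed, none of the 5 genes of this paragraph that passed did so again (adjusted p = 0.327 for Son, 0.06 for Pnn, 0.0934 for Leng8, 0.293 for Prrc2c and 0.147 for Ogt). Pnn, another protein of nuclear speckles, had -1.07 ± 0.22 (adjusted p = 0.0158), Leng8 -1.12 ± 0.25 (adjusted p = 0.0304) and Prrc2c -0.71 ± 0.16 (adjusted p = 0.0304). Ogt, the enzyme that adds N-acetylglucosamine to nuclear and cytosolic proteins, had -1.03 ± 0.25 (adjusted p = 0.0407). Among 11 tested chromatin regulators 10 lay below 0 (90.9% against 65.9% of all genes), with a median of -0.36. Of these 11, 0 passed by limma (3 at an unadjusted p under 0.05). The histone methyltransferase gene Kmt2d had -0.77 ± 0.20 (adjusted p = 0.0606) and the demethylase gene Kdm6a -0.53 ± 0.23 (adjusted p = 0.306).

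Transcript length moved with the groups. Transcript lengths were found for 2263 of the 2299 genes (98.4%). The interaction fell with length over genes (Pearson r = -0.32, Spearman rho = -0.42), where genes of 1 library share its length profile. From the shortest to the longest of 4 equal bins of genes its median was 0.00, -0.03, -0.09 and -0.28, and 1, 7, 10 and 17 genes passed. The median level of the longest bin less that of the shortest, relative to the mean of each gene, was -0.22, -0.13 and -0.16 log2 in the males given both, below all other males. It was 0.14, -0.03 and -0.08 in controls, 0.13, 0.08 and 0.14 with the Kdm5 vectors and 0.01, -0.09 and 0.18 with the AhR vector. When each library's trend with length was removed, 10 genes passed, 6 lower and 4 higher, and 9 of them were among the 37. These 9 were Bcl6, Spata2l, Pim3, Arrdc2, Lgals4, Ip6k2, Id2, Tbx3 and Camk2b. The other 26 of the 35 genes with a length did not pass there, with adjusted p-values from 0.051 to 0.327 by limma. Among them were Per1, Herpud1, Rasgef1b, Kcnk5, Foxo1, Klf15, Son, Pnn, Leng8, Prrc2c, Ogt and Prob1. Gm39701 and Gm41844 have no length and were not in that fit. The cause of the trend was not tested.

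**Figure D3:**
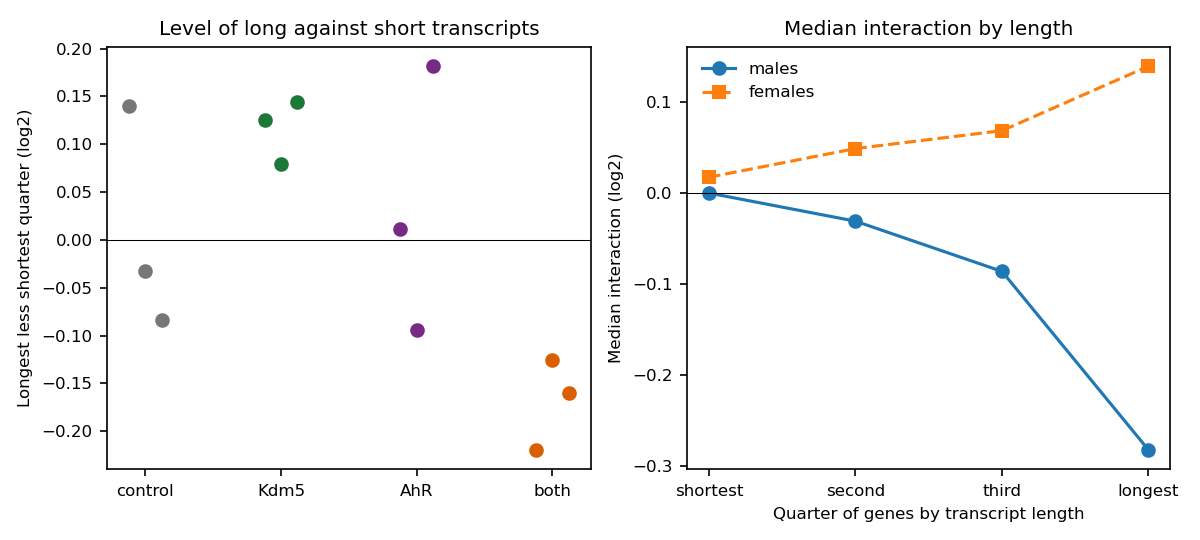
Left, level of the longest of 4 bins of transcripts less that of the shortest (log2) in each male mouse, by vector group; the 3 mice given both vectors sit between -0.22 and -0.13, below all others. Right, median interaction (log2) of each bin of genes by transcript length, which runs from 0.00 to -0.28 in males (circles) and from 0.02 to 0.14 in females (squares).

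Of the genes above the sum, Id2 (chromosome 12, 25093799 to 25096092), a helix-loop-helix protein that blocks DNA binding by its partners, measured 77.59, 88.28 and 73.39 FPKM in controls, 38.18, 57.08 and 61.43 with the Kdm5 vectors, 47.25, 39.53 and 46.61 with the AhR vector and 76.19, 78.45 and 98.84 with both. All single-vector libraries lay below all controls and below all libraries with both, and those outer groups overlapped. Its interaction was 1.54 ± 0.29 (adjusted p = 0.0158); the single effects did not pass at -0.63 ± 0.21 (adjusted p = 0.219) for the Kdm5 vectors and -0.84 ± 0.21 (adjusted p = 0.0503) for the AhR vector. Tbx3 (chromosome 5, 119670534 to 119684724), a T-box repressor of pericentral hepatocytes downstream of Wnt signals, measured 7.54, 7.28 and 5.64 FPKM in controls, 3.02, 4.94 and 4.96 with the Kdm5 vectors, 4.25, 4.52 and 3.92 with the AhR vector and 5.89, 5.4 and 5.23 with both. The single-vector libraries were again lowest, and the interaction was 0.97 ± 0.24 (adjusted p = 0.0407). It passed in 3 of the 12 fits without 1 library. The list of 11 tested pericentral genes had a median of -0.01 and Tbx3 was its member that passed. Lgr5, a receptor that strengthens Wnt signals, had -0.77 ± 0.39 (adjusted p = 0.435).

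Camk2b (chromosome 11, 5969629 to 6066357), a calcium/calmodulin-dependent kinase subunit, was low, at 2.01, 1.63 and 1.44 FPKM in controls, 0.67, 1.53 and 2.13 with the Kdm5 vectors and 0.37, 0.73 and 0.8 with the AhR vector. With both it measured 4.08, 3.9 and 2.16 FPKM, above every single-vector library. The Kdm5 vectors given with the AhR vector raised it by 1.76 ± 0.29 (adjusted p = 0.00129), alone they changed it by -0.24 ± 0.29 (adjusted p = 0.898), and the interaction was 2.00 ± 0.40 (adjusted p = 0.0158). The predicted genes Gm39701 and Gm41844, with no assigned function, had interactions of 1.85 ± 0.44 (adjusted p = 0.0346) and 1.60 ± 0.38 (adjusted p = 0.0343). Gm39701 measured 4.6, 3.36 and 5.19 FPKM with the AhR vector and 25.77, 21.2 and 10.39 with both, and the last of these mice lay within the range of the Kdm5 group. Camk2b passed in 10 of the 12 fits without 1 library, Gm41844 in 4 and Gm39701 in 3.

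**Figure D4:**
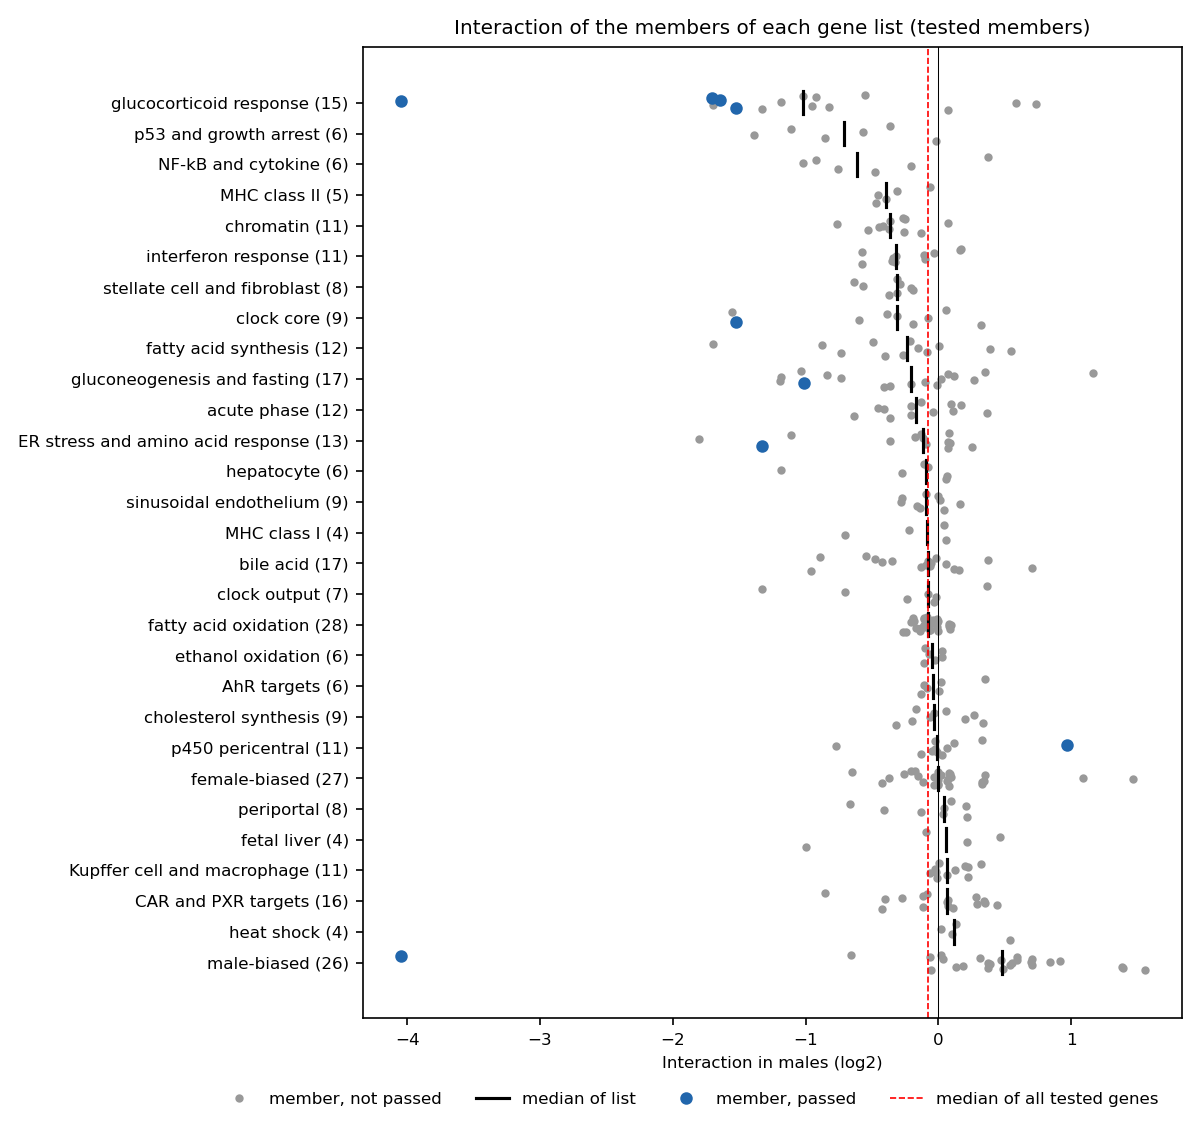
Interaction in males (horizontal axis, log2) of each tested member of the 29 gene lists with at least 4 tested members, with the number of tested members in brackets; black bars are list medians, the dashed red line is the median of all tested genes (-0.08) and large blue points passed. The glucocorticoid list lies furthest to the left (median -1.02) and the male-biased list furthest to the right (median 0.48).

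Immune and growth-arrest lists had medians below 0 and no member that passed by limma. Over all tested genes 65.9% lay below 0, with a median of -0.08. All 6 tested genes of p53 and growth arrest were below 0, with a median of -0.71 (0 passed by limma, 1 at an unadjusted p under 0.05). Gadd45g, a stress-induced growth arrest gene, measured 11.21, 33.99 and 12.84 FPKM with the AhR vector, where mouse 2 stood apart, and 4.21, 4.08 and 4.49 with both (-1.39 ± 0.68, adjusted p = 0.421). Trp53inp1, a p53-induced autophagy protein, had -1.11 ± 0.31 (adjusted p = 0.0754). Of 6 tested genes of NF-kB and cytokine signalling 5 lay below 0, with a median of -0.61 and 4 at an unadjusted p under 0.05, among them the interleukin 6 receptor gene Il6ra at -0.92 ± 0.27 (adjusted p = 0.0954). Its members Il6ra and Il1r1 had been named in earlier results of these libraries, so this list is no independent evidence of a direction. The 11 interferon-responsive genes had a median of -0.32, with 9 below 0 and 1 at an unadjusted p under 0.05, for example the antiviral signal transducer Stat2 at -0.58 ± 0.21 (adjusted p = 0.198). All 5 genes of MHC class II antigen presentation lay below 0, with a median of -0.39 and 0 at an unadjusted p under 0.05. With median-of-ratios scaling, which moved the median of all genes to 0.00, these 4 medians were -0.64, -0.55, -0.25 and -0.31 in the same order, and members near 0 can change sign. H2-Aa, an MHC class II alpha chain, measured 42.18, 38.26 and 52.21 FPKM with the AhR vector and 28.79, 40.08 and 38.11 with both, against 17.24, 21.05 and 20.49 in controls. Both groups with the AhR vector stood above the controls, and the interaction was -0.47 ± 0.30 (adjusted p = 0.62).

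Genes with male-biased expression in mouse liver, most of them under the pulsatile growth hormone of males, lay mostly above 0. Of 26 tested members 22 lay above 0, against 778 of all 2299 genes, with a median of 0.48 against -0.08 over all genes. The members share the same libraries, so they are not separate observations of a vector effect. Of the 26, 1 passed in the lower direction (3.85% of the list, against 1.61% of all genes). It was Bcl6, itself higher in control females than in control males here. Without Bcl6 and the Mup genes, 16 of 18 lay above 0 and the median was 0.50. Mup7, a major urinary protein, measured 15711 FPKM on average in controls and had an interaction of 1.55 ± 0.82 (adjusted p = 0.475), and Mup1 had 1.39 ± 0.64 (adjusted p = 0.366). Reads of the Mup genes can be shared between near-identical copies, so a single member is uncertain. The female-biased list says little here, since most of its 27 tested genes passed the filter through the female libraries, and Sult2a3, Sult2a5, Cyp3a41b and Hao2 were listed at 0 in every male library. Of its 9 genes with at least 1 FPKM in 3 male libraries, 5 lay below 0 and 4 above, with a median of -0.18 and 0 passed by limma (0 at an unadjusted p under 0.05). In the male-biased list 0 genes passed in the higher direction by limma, and 3 of its members had an unadjusted p under 0.05.

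The medians of most metabolic lists were near that of all genes. The 28 tested genes of fatty acid oxidation lay between -0.27 and 0.09, with a median of -0.08, equal to that of all genes, and 0 passed by limma (0 at an unadjusted p under 0.05). The carnitine shuttle enzyme gene Cpt1a had -0.24 ± 0.25 (adjusted p = 0.91). The 6 tested enzymes of ethanol oxidation lay between -0.11 and 0.03, among them the alcohol dehydrogenase gene Adh1 at -0.11 ± 0.33 (adjusted p = 0.999) with a 95% confidence interval of -0.79 to 0.57. Of the 6 tested AhR target genes 0 passed by limma (0 at an unadjusted p under 0.05), with a median of -0.04. Cyp1a2, the classical AhR-induced P450 of hepatocytes, measured 163.88, 238.46 and 123.8 FPKM in controls, 151.02, 170.29 and 179.4 with the Kdm5 vectors, 185.45, 160.29 and 138.11 with the AhR vector and 165.07, 131.54 and 137.43 with both. All 4 groups overlapped, and its interaction was -0.13 ± 0.32 with a 95% confidence interval of -0.79 to 0.53. Fatty acid synthesis (12 genes, median -0.24), bile acid genes (17, median -0.08), targets of the xenobiotic receptors CAR and PXR (16, median 0.07) and cholesterol synthesis (9, median -0.04) also had 0 genes passed by limma, with 3, 2, 0 and 0 at an unadjusted p under 0.05. So had acute phase proteins (12, median -0.17), periportal genes (8, median 0.04), MHC class I (4, median -0.09), heat shock (4, median 0.12) and fetal liver genes (4, median 0.06), with 0, 1, 1, 0 and 1. With median-of-ratios scaling the medians of fatty acid oxidation, ethanol oxidation, AhR targets, bile acid genes and cholesterol synthesis lay on the other side of 0, at 0.00, 0.04, 0.04, 0.00 and 0.05.

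Whole liver mixes cell types, and fewer cells of a type cannot be told apart from less RNA per cell. Of the 16 markers of stellate cells and fibroblasts 8 were tested, and all 8 had an interaction below 0, against 65.9% of all genes. The median of these 8 was -0.31, and 0 passed by limma (2 at an unadjusted p under 0.05). These 8 markers differ widely in level. In control females Fn1 averaged 239 FPKM, Ecm1 122 and Dcn 114, against 2.54 for Lrat and 1.22 for Pdgfra. A sum over them therefore follows mainly its highest members. In the males their summed level was 330 to 401 FPKM in controls, 357 to 397 with the Kdm5 vectors, 392 to 422 with the AhR vector and 337 to 347 with both. The 11 of 16 Kupffer cell and macrophage markers had a median of 0.06 and summed to 282 to 380, 264 to 289, 340 to 463 and 266 to 403 FPKM in the same order. The 9 of 12 sinusoidal endothelial markers had a median of -0.09 and summed to between 83.9 and 120 FPKM in all males. The cholangiocyte list was represented by Sox9, at 1.72 to 2.44 FPKM in controls and 0.7 to 1.49 with the AhR vector (interaction 0.56 ± 0.28, adjusted p = 0.438). The 3 erythrocyte genes summed to 521 to 610 FPKM in controls, 631 to 775 with the Kdm5 vectors, 548 to 745 with the AhR vector and 539 to 997 with both. Markers of monocytes and neutrophils, dendritic cells, B cells and T or NK cells were not analysed here. The part of cell composition in the interaction was not tested.

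In females the same difference of differences, computed from 12 other libraries, gave another picture. Kdm5c measured 11.07, 9.32 and 10.6 FPKM in control females and 9.94, 9.9 and 9.05 in Kdm5 females. It measured 13.07, 12.93 and 12.03 in AhR females and 10.2, 12.46 and 9.37 in females given both. In each pair the libraries with and without the Kdm5 vectors overlapped, unlike in males, and this effect was not tested in females. For the female interaction 14 genes passed (0.609%), 8 higher and 6 lower. That count was 1 without mouse 1 of the female control group or without mouse 3 of the female combined group, 23 without mouse 2 of the control group, 9 without mouse 1 of the AhR group and 8 without mouse 1 of the Kdm5 group. Over the 2299 genes the male and female interactions had r = -0.06 and rho = -0.12, a description over genes of the same libraries. Of the 37 genes of the males, 20 had the same sign in females and 17 the opposite one, while 57.6% of all genes did not share a sign. The male and female interactions differed for 6 genes (0.261%), all lower in males (9 genes, 3 of them higher, with median-of-ratios scaling), and 4 of these were among the 37: Bcl6, Spata2l, Rasgef1b and Kcnk5. Without 1 library the count of 6 ranged from 2, without mouse 3 of the male AhR group, to 14, without mouse 3 of the female controls. It was 3 without mouse 2 of the male controls, mouse 3 of the male Kdm5 group, mouse 1 or 3 of the male combined group, mouse 1 of the female AhR group, mouse 2 of the female Kdm5 group or mouse 3 of the female combined group. It was 13 without mouse 2 of the female controls and 10 without mouse 2 of the female AhR group or of the female combined group.

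Spata2l was the gene that passed in both sexes, with opposite signs. In females it measured 20.33, 21.78 and 17.97 FPKM with control vectors, 17, 19.09 and 19.55 with the Kdm5 vectors, 12.54, 14.96 and 15.05 with the AhR vector and 24.4, 24.01 and 25.6 with both. The female AhR group was lowest and the combined group highest, without overlap with the other groups, whereas in males the AhR group was highest. The female interaction was 0.89 ± 0.17 (adjusted p = 0.0182), and the male one differed from it by -2.62 ± 0.25 (adjusted p = 2.83e-06). Bcl6 in females measured 7.75, 5.52 and 6.15 FPKM with control vectors, 12.34, 5.38 and 7.88 with the Kdm5 vectors, 8.25, 13.48 and 6.43 with the AhR vector and 4.38, 6.23 and 7.87 with both, and all 4 groups overlapped. Its female interaction was -0.85 ± 0.41 (adjusted p = 0.485), and the difference between the sexes was -3.20 ± 0.57 (adjusted p = 0.0201). For the other 33 of the 37 genes the difference between the sexes did not pass, so that their interaction is not shown to differ between males and females.

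**Figure D5:**
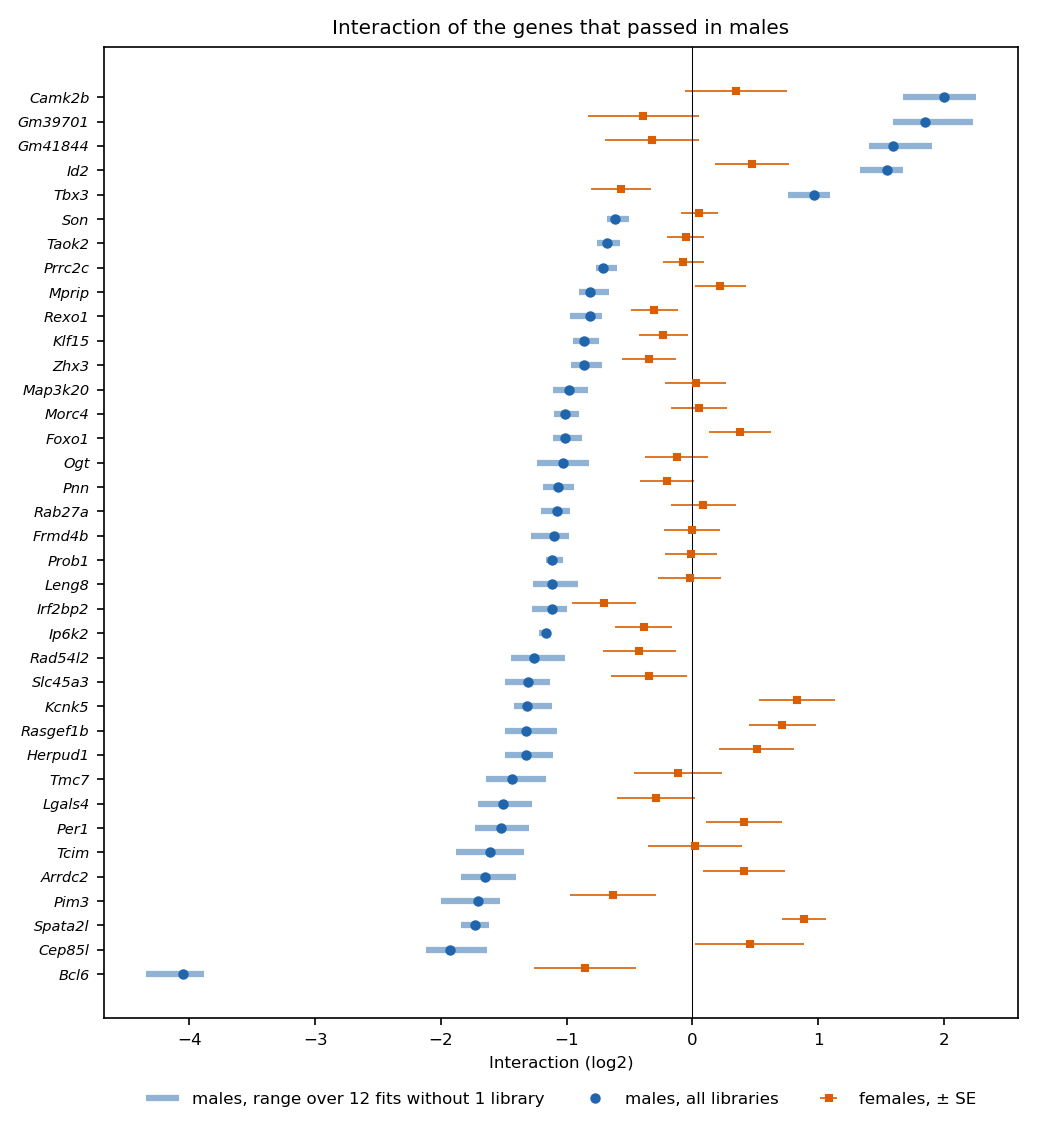
Interaction (log2) of the 37 genes that passed in males: blue points with all libraries, blue bars the range over 12 fits that each left out 1 male library, orange squares the female interaction with its standard error. No blue bar crosses 0, and the female values lie between -0.85 (Bcl6) and 0.89 (Spata2l).

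The plot of the 37 genes with single libraries left out shows that many of their calls did not hold. Their signs held, which their choice by this same test largely fixed. Among the named genes Arrdc2 passed in 9, Rasgef1b in 9, Pim3 in 8, Lgals4 in 8, Herpud1 in 6, Cep85l in 5, Kcnk5 in 4, Slc45a3 in 4 and Rad54l2 in 4 of the 12 fits. Adjusted p-values in these fits reached at most 0.0885 for these 9 genes, by limma with Benjamini-Hochberg adjustment. Foxo1 passed in 2 of the 12.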

How the data were processed

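The deposited table gives FPKM per gene and library, per the file headers; its name speaks of raw counts, but no column holds any. The submitters' processing notes list Bowtie2 and HISAT, and the build GRCm38.p6. Tool versions were not given in the sources used here. Since FPKM hold no read counts, depth is unknown and no counting interval can be given. How the 2372 genes (2360 marked mRNA) were chosen is not stated, so adjusted p-values hold within this table. All mapped columns were used, with 0 unmapped.

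Values were tested as log2(FPKM + 0.5) in limma 3.58.1 (R 4.3.3) with an intensity trend and robust moderation, 1 mean for each of 8 groups of all 24 libraries and 16 residual degrees of freedom. P-values were adjusted by Benjamini-Hochberg over 2299 genes. A ± after a log2 value is its standard error, and the added 0.5 understates changes of low genes. The fit was tested on simulated data. Genes were named by rule: Kdm5c, up to 15 highest and 15 lowest interactions that passed with a mean of at least 1 FPKM in males, up to 4 passed members of each of 35 gene lists and up to 2 others as values. Of 570 listed genes 304 were in the table. The genes and lists were chosen with earlier results of these data known. Transcript lengths came from GENCODE and start-site windows from RefSeq. Alternatives tried were another scaling, filters, pseudocounts, fits on 1 sex, no moderation, library weights, a clock covariate and leaving out each library; removing the length trend and thinning the glucocorticoid and female-biased lists were chosen after seeing the data.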

Additional observations from a re-analysis of the deposited data

Results flagged for a closer look

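For 6 genes the interaction differed between males and females by limma's test of the difference itself (adjusted p under 0.05). Bcl6 differed by -3.20 log2, at -4.05 in males and -0.85 in females. Spata2l differed by -2.62, at -1.73 and 0.89. Kcnk5 differed by -2.14, at -1.31 and 0.83, and Rasgef1b by -2.04, at -1.32 and 0.72. In females Kcnk5 measured 12.25, 19.25 and 11.25 FPKM with control vectors, 8.59, 11.16 and 12.78 with the Kdm5 vectors, 8.63, 9.24 and 6.93 with the AhR vector and 11.85, 8.81 and 14.9 with both, where the controls overlapped the combined group and the AhR group was lowest on average.

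The remaining pair did not pass in males. Abcb1a, the drug efflux pump P-glycoprotein, differed by -2.04, with -0.59 in males (adjusted p = 0.458) and 1.45 in females (adjusted p = 0.0251), at male group means of 0.34 to 0.563 FPKM. Srsf5, a splicing factor, differed by -1.69, with -0.44 in males (adjusted p = 0.547) and 1.25 in females (adjusted p = 0.0223).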

How the results depend on the processing

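The count of genes passed depended on the processing, while the signs of the 37 genes did not change under any alternative in which they were tested. Choosing the 37 by the main fit of the same libraries largely fixed those signs. For the male interaction the count of 37 became 23 with median-of-ratios scaling (5 higher, 18 lower), 13 on male libraries alone, 97 with library weights, 4 with the clock covariate, 10 with the length trend removed, and 5 to 44 without 1 library. For the Kdm5 vectors alone 28 genes passed (1.22%), 66 with library weights, 0 with the clock covariate (142 at an unadjusted p under 0.05 by limma) and 0 to 29 without 1 library (control mouse 1, 2 or 3: 1, 14 or 9, Kdm5 mouse 1, 2 or 3: 0, 11 or 14, combined mouse 2: 18; with Kdm5 mouse 1 left out 194 unadjusted). For the Kdm5 vectors with the AhR vector 75 passed (3.26%), 179 with library weights, 46 with the length trend removed and 35 to 75 without 1 library (AhR mouse 2: 42, combined mouse 2 or 3: 43 or 35). For the AhR vector alone 25 passed (1.09%), 40 on male libraries alone, 59 with library weights, 2 with the clock covariate and 9 to 26 without 1 library (control mouse 3: 14, AhR mouse 1 or 3: 15 or 9). For the AhR vector with the Kdm5 vectors 21 passed (0.913%), 8 with a filter of 5 FPKM, 8 on male libraries alone, 235 with library weights, 13 with the length trend removed and 0 to 34 without 1 library. It was 0, 9 or 3 without Kdm5 mouse 1 (282 unadjusted), 2 or 3, 5 or 0 without combined mouse 2 or 3 (311 unadjusted), and 34 without AhR mouse 3. For the female interaction 14 became 1 on female libraries alone, 7 with the clock covariate and 1 to 23 without 1 library. For the difference between the sexes 6 became 20 with no filter, 23 with library weights, 2 with the clock covariate and 2 to 14 without 1 library. The scaling moved the median of all genes from -0.16 to -0.04 for that difference (9 genes, 3 higher and 6 lower), and from -0.08 to 0.00 for the male interaction, so genes near 0 can change sign with it. The cause of these changes was not tested. Of the values of single named genes under the alternatives, 1584 stayed on the same side of the threshold, 154 no longer passed and 11 newly passed. A reversed sign was counted only where the gene passed in the main or the alternative fit, and 0 were. Sign changes of genes that passed in neither fit are held within the 1584. A left-out library leaves 2 mice in its group, which are assumed to vary like the others. No paired analysis was possible because the labels link no mouse of 1 group to a mouse of another. The mouse numbers 1 to 3 used here follow only the order of the samples.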
